A study of Mus musculus with 4 samples.

Results

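Ace-positive monocytes are 255 of the 11224 single immune cells kept from B16F10-OVA melanomas, a mouse skin tumour line that carries the model antigen ovalbumin. A cell was a member when it held at least 5 transcript counts (unique molecular identifiers, UMIs) of the myeloid gene Lyz2 and at least 1 UMI of Ace, the gene of angiotensin-converting enzyme. It also had to hold at most 5 UMIs of the macrophage genes C1qa, C1qb and C1qc together, at most 1 of Cd209a, at most 1 of Siglech and at most 1 of Cd3d, Cd3e and Cd3g together. Xcr1 with Clec9a and Ccr7 had to be at 0. At least 200 genes and at most 10% mitochondrial UMIs were required of every cell. The rule was drawn up on these libraries, so the levels of those genes in the members are a description and support nothing.

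All hosts had received 1000000 B16F10-OVA cells under the skin. They were wild-type C57BL/6 mice or mice whose T cells lack miR-155 (miR-155 TCKO, called knockout here), and the tumours were taken at day 9 or day 12. Tumours of more than 4 mice were pooled per group and live CD45+ cells that excluded the dye DAPI were sorted, which gave 1 library for each genotype and day and no replicate of any of them. The promoter that drives the Cre recombinase, the age and the sex of the mice are not given in the sources used here. The monocytes themselves carry no deletion by this design.

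Monocytes of the mouse are commonly divided into classical cells, with high Ly6C (the protein of Ly6c2) and the chemokine receptor CCR2, and non-classical or Ly6C-low cells. Classical monocytes leave the blood for inflamed tissue and can become macrophages there. Non-classical monocytes arise largely from classical monocytes, need the transcription factor NR4A1, carry the fractalkine receptor CX3CR1, and crawl along the inner wall of blood vessels with the integrin LFA-1, whose alpha chain is encoded by Itgal. Angiotensin-converting enzyme, a peptidase of the cell surface that makes angiotensin II, is among the genes known to be higher in non-classical than in classical monocytes. Hp encodes haptoglobin, which binds free haemoglobin and is made by several kinds of myeloid cell.

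The knocked-out microRNA is shown here because it defines the genotype contrast, with the seed that pairs with target transcripts, bases 2 to 8, in capitals. The mature strand lies on chromosome 16 at 84714143 to 84714165 on the plus strand, within the host transcript Mir155hg (ENSMUSG00000097418, chromosome 16, 84703167 to 84715245), and the sequence is that of RefSeq on build GRCm38.p6.
mmu-miR-155-5p: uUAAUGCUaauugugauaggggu

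Values for the 4 libraries are given throughout in the order wild-type day 9, knockout day 9, wild-type day 12 and knockout day 12. The libraries held 1778, 3749, 3684 and 2059 cell barcodes and between 18783490 and 33902064 UMIs. T cells, taken as cells with at least 3 Cd3 UMIs and at most 1 Lyz2 UMI, held 79, 2, 7 and 0 Mir155hg UMIs in that order, or 8.32, 0.740 and 5.28 CPM (counts per 1000000) in the first 3. The knockout was lower at day 9, and the 0 of the knockout at day 12 allowed up to 4.00 CPM by a floor of 3 UMIs. The Ace-positive monocytes held 0 Mir155hg UMIs in every library, which allowed up to 39.9, 1.93, 24.8 and 18.4 CPM. Since the reads come from the 3' end, they need not fall in the deleted stretch.

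The 255 cells were spread unevenly, with 10, 195, 23 and 27 in the 4 libraries, so 76.5% of them came from the knockout tumours of day 9. Their UMIs were summed per library, and the sums held 75128, 1552610, 121143 and 162703 UMIs. The wild-type sum of day 9 thus rests on 10 cells, and its values carry the widest counting error. The median member held 7835.5, 7392, 5235 and 5808 UMIs, and the median mitochondrial share lay between 1.47% and 1.84%. No member barcode was found in a pair of member sets, and 1 of the 255 also occurred as a barcode of another library.

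Ace-positive monocytes formed a larger share of the knockout than of the wild-type infiltrate on both days. They made up 0.563% of the kept cells in the wild-type library of day 9 (exact Clopper-Pearson 95% interval 0.270% to 1.03%) and 5.22% in the knockout library of that day (4.53% to 5.98%). At day 12 they made up 0.626% of wild-type cells (0.397% to 0.938%) and 1.33% of knockout cells (0.876% to 1.92%). The knockout library of day 9 stood above the other 3, whose intervals overlap. The share was 9.27-fold higher in knockout than in wild-type at day 9 (4.93 to 19.6) and 2.12-fold higher at day 12 (1.17 to 3.87). These intervals cover counting error only, since there is 1 pool of mice per group, and the difference between mice was not measured.

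Monocytes as a whole were also a larger share of the kept cells in the knockout library of day 9, and cells per tumour were not measured. The gate means all cells that met the same limits whatever their Ace. It held 148, 1367, 745 and 475 of the 1777, 3738, 3673 and 2036 kept cells. Of the cells of the gate, 6.76%, 14.3%, 3.09% and 5.68% were Ace-positive. Within the gate the knockout share was 2.11-fold the wild-type share at day 9 (1.12 to 4.47) and 1.84-fold at day 12 (1.02 to 3.36). Classical monocytes, taken as cells of the gate with 0 Ace and at least 5 Ly6c2 UMIs, numbered 96, 732, 538 and 244. There were 10.4, 26.6, 4.28 and 11.1 Ace-positive cells for every 100 of them. Both ratios were lower at day 12 than at day 9 within each genotype, and higher in knockout than in wild-type within each day. The interval of the day 12 ratio over all cells reached below 1 when at least 2 Ace UMIs were asked for (1.98, 0.765 to 5.21) and when cells were thinned to 3000 UMIs (2.13, 0.959 to 4.81). Within the gate it did so at day 12 in both of these settings and also without cells of 10 or more S100a8 UMIs (1.64, 0.885 to 3.03), with a mitochondrial limit of 5% (1.80, 0.989 to 3.31) and with at most 2 C1q UMIs (1.78, 0.962 to 3.31). At day 9 it did so within the gate with at least 2 Ace UMIs (2.60, 0.982 to 9.73).

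**Figure D1:**
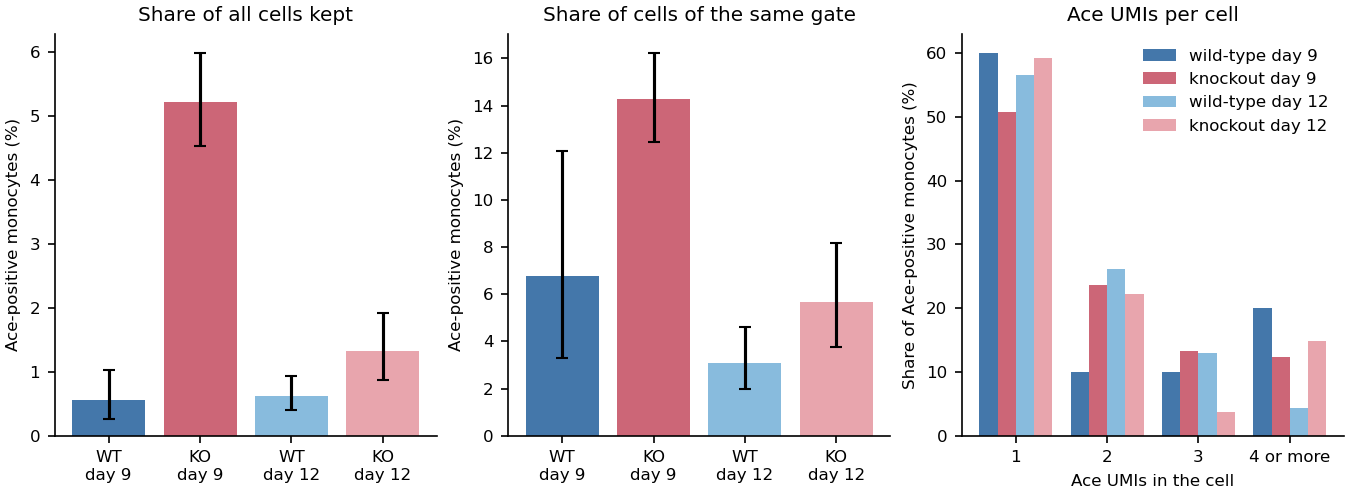
Ace-positive monocytes as a share of all kept cells (left) and of the cells of the gate (middle), in percent with exact 95% intervals for counting error, and the share of them with 1, 2, 3 or 4 and more Ace UMIs (right), by library. The knockout library of day 9 has the tallest bar in both share panels, and most cells of every library hold 1 Ace UMI.

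Ace was a low transcript even in the cells chosen for it. Of the 255 cells, 134 held 1 Ace UMI, 59 held 2 and 62 held 3 or more, and the highest count was 10. Summed Ace levels were 253, 254, 322 and 295 CPM. Cells with an Ace UMI were rarer outside the monocyte gate. The transcript was found in 0 of 1893 T cells (which allows a share of up to 0.158%), in 0 of 442 NK cells (up to 0.679%), in 12 of 2073 cells with at least 10 C1q and 5 Lyz2 UMIs (0.579%), in 10 of 847 cDC2 with at least 3 Cd209a UMIs (1.18%) and in 255 of 2735 cells of the gate (9.32%). The median T cell held 3304 to 9344 UMIs and the median cell of the gate 7281 to 8496.5, so depth was lower in T cells of 3 libraries. Hp was less particular to these cells. It was found in 55.2% of cells of the gate, in 20.6% of those C1q-high cells and in 0.687% of T cells, and in 9 of 10, 151 of 195, 16 of 23 and 20 of 27 Ace-positive cells.

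The name of the cells was set beside 20 genes of non-classical monocytes, none of which the rule used. These genes were listed with earlier results of these data known, so they are no independent check of the name. Their summed level was 3514, 4358, 5374 and 5575 CPM in Ace-positive cells, against 1915, 1833, 2057 and 1973 CPM in classical monocytes and 1961 to 2225 CPM in C1q macrophages. The lowest of the Ace-positive libraries stood above the highest of the others. Genes of classical monocytes, given further on, were not lower in turn as a group. Of 12 such genes 1 was called lower than in classical monocytes. In each of the 4 libraries 2 were higher, without a call, and 1 was lower. Each of the 255 cells held at least 1 UMI of the non-classical list, with a median of 40.3 and a range of 5.0 to 203 UMIs per 10000. Members just inside the C1q limit, 10 cells with 3 to 5 C1q UMIs, were at 4940 CPM, and the 16 Ace-positive cells outside it with 6 or more were at 3256 CPM.

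The list rose with the number of Ace UMIs in the cell. Over all libraries it stood at 2005 CPM in cells of the gate with 0 Ace UMIs, at 3738 CPM with 1, at 5024 CPM with 2 and at 5638 CPM with 3 or more. The order from 0 to 1 to 2 UMIs was the same in each of the 4 libraries, although in wild-type day 9 the step to 2 UMIs rests on 1 cell. From 2 UMIs to 3 or more the list went from 7951 to 6564 CPM in wild-type day 12 and was higher in the other 3 libraries. Ace-positive cells also differed among themselves in Ly6c2. The 159 members with 0 to 4 Ly6c2 UMIs held the list at 5277, 5022, 6513 and 6805 CPM, and the 96 members with 5 or more held it at 2149, 3502, 4009 and 2753 CPM. In every library the cells low in Ly6c2 were higher. The 4 members of wild-type day 9 with 10 or more Ly6c2 UMIs stood at 1594 CPM, below the 1929 CPM of that library's Ace-negative cells. Such members stood above them in knockout day 9 (3178 against 1964 CPM) and wild-type day 12 (3751 against 2068 CPM). Low Ly6c2 alone did not go with the list, as the 870 Ace-negative cells of the gate with 0 to 4 Ly6c2 UMIs stood at 2140 CPM and those with 5 or more at 1928 CPM. Across the 255 cells Spearman's rho between the list and Ly6c2, both per UMI, was -0.39, a description over cells that share libraries and depth. The set called Ace-positive is thus a range that reaches from Ly6c2-low cells with much of the list to Ly6c2-high cells with less of it, and 58 of the 255 cells (22.7%) held no Ly6c2 UMI.

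**Figure D2:**
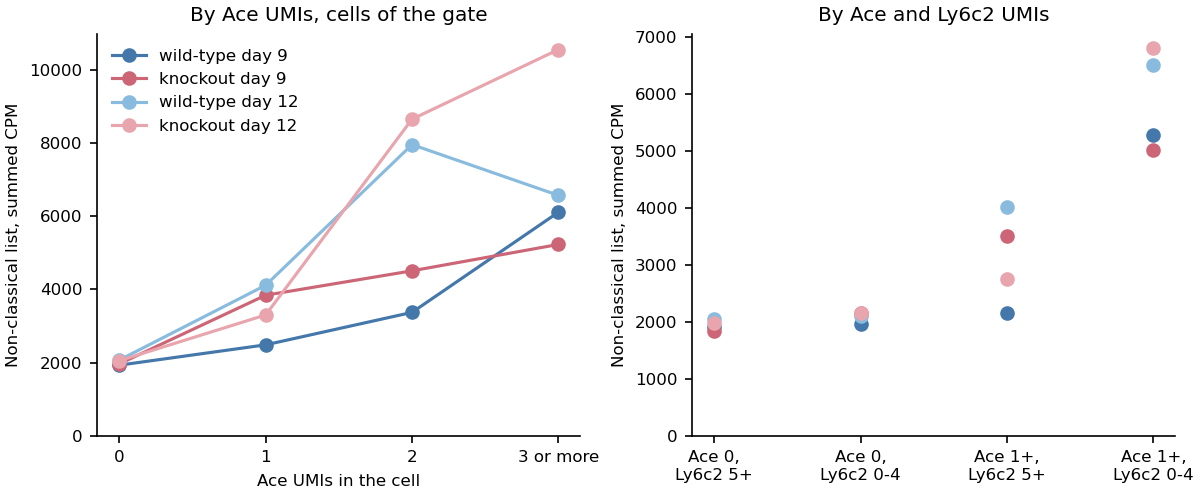
Summed level (CPM) of the 20 non-classical monocyte genes in cells of the gate, by Ace UMIs per cell (left) and by Ace and Ly6c2 UMIs (right), with 1 point per library. On the right, within each library, Ace-negative cells lie lowest whatever their Ly6c2. Ace-positive cells with 0 to 4 Ly6c2 UMIs lie highest there, between 5022 and 6805 CPM. Ace-positive cells of wild-type day 9 with 5 or more stand at 2149 CPM. That is below the 2163 CPM of Ace-negative knockout day 9 cells with 0 to 4.

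The next comparison set the Ace-positive cells against classical monocytes of the same libraries. Ace-positive cells were higher in 16 of 20 non-classical monocyte genes and in the adhesion and trafficking genes Itgal, Spn, S1pr5 and Ceacam1. They were lower in genes of monocyte-attracting chemokines, MHC class II presentation, glycolysis and the hypoxia response. Of 12 genes of classical monocytes, without Ly6c2, which had set the comparison, 1 differed. edgeR's quasi-likelihood test on the UMI sums, with library as a block and Benjamini-Hochberg adjustment, called 174 of 8962 genes higher (1.94%) and 323 lower (3.6%) at an adjusted p of 0.05. The genes of the rule and Ly6c2 were kept out of these calls. With median-of-ratios (RLE) scaling in place of TMM the split was 249 higher and 226 lower, 52.4% higher against 35.0%, so the balance of the directions depends on the scaling. The classical cells were picked by high Ly6c2, and against all Ace-negative cells of the gate 315 genes were higher and 437 lower.

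Among genes by which non-classical monocytes are known, Treml4 encodes a receptor of the myeloid surface and Adgre4 an adhesion receptor of the EGF-TM7 family. Treml4 (ENSMUSG00000051682, chromosome 17) stood at 53.2, 121, 165 and 129 CPM in Ace-positive cells and at 12.3, 12.9, 4.02 and 6.06 CPM in classical monocytes. Adgre4 stood at 173, 92.7, 132 and 98.3 CPM against 12.3, 16.9, 2.84 and 7.45 CPM. For both genes the lowest Ace-positive library lay above the highest classical one. The log2 fold change was 3.65 for Treml4 (SE 0.37, adjusted p 2.14e-06) and 3.26 for Adgre4 (SE 0.36, adjusted p 7.70e-06). Gngt2, a G protein gamma subunit, gave the largest number of UMIs of these markers, with 985, 1102, 1073 and 990 CPM against 193, 281, 125 and 146 CPM. Its levels barely varied between the Ace-positive libraries, and the log2 fold change was 2.40 (SE 0.17, adjusted p 1.27e-08). Ear2, an eosinophil-type ribonuclease, stood at 146, 312, 429 and 547 CPM against 52.8, 35.7, 22.5 and 57.8 CPM, with a log2 fold change of 3.11 (SE 0.25). Ear2 belongs to a multigene family with near-identical copies, so its counts are uncertain. Cx3cr1 stood at 106, 117, 206 and 191 CPM against 51.6, 47.4, 14.2 and 20.5 CPM, which do not overlap, and the log2 fold change was 2.05 (SE 0.31, adjusted p 0.000309).

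Other genes of the list were higher too, with exceptions in the wild-type library of day 9. Eno3, a muscle-type enolase, was at 0, 92.7, 198 and 79.9 CPM against 2.25 to 6.52 CPM, and Spn, which encodes the sialophorin CD43, at 13.3, 68.3, 90.8 and 104 CPM against 7.10 to 16.8 CPM. In both genes the 10 cells of the wild-type library of day 9 did not stand above the classical cells of that library, and the other 3 libraries did. Pglyrp1, Cd300e and Ceacam1 showed the same exception, and 10 of the 20 genes were higher in each of the 4 libraries and 1, Bcl2a1b, was lower in each. The log2 fold changes were 4.37 for Eno3, 2.45 for Spn, 2.63 for Pglyrp1, 3.71 for Cd300e, 3.77 for Fabp4 and 1.56 for Ceacam1. Bcl2a1b, Cd9, Fcgr4 and Itgax did not pass the test, with log2 fold changes of -0.47, 0.65, -0.40 and 0.04. The median over the 20 genes was 2.12, against -0.06 over all genes tested. Across 15 other settings between 11 and 16 of the 20 were higher and at most 1 was lower. Klf2 and Cd36 lost their calls most often among these genes, Klf2 (log2 fold change 0.77, adjusted p 0.0464) in 10 of the 15 settings and Cd36 (1.05) in 6, among them without knockout day 9 (1.17) or knockout day 12 (0.83).

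**Figure D3:**
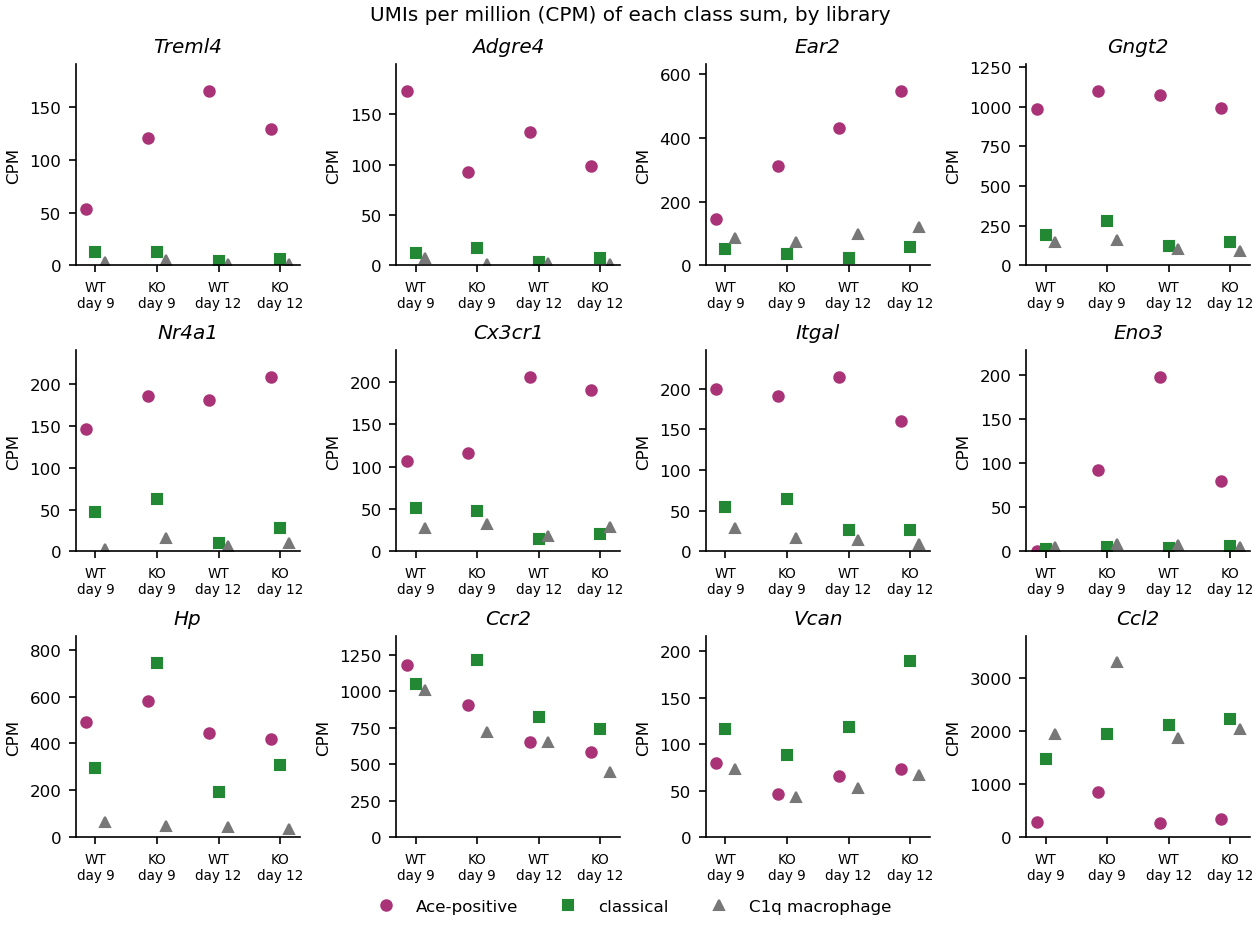
Levels (CPM) of 12 genes in the UMI sums of Ace-positive cells (circles), classical monocytes (squares) and C1q macrophages (triangles), with 1 point per class and library. Treml4, Adgre4, Gngt2, Nr4a1, Cx3cr1 and Itgal are higher in the circles of every library, Eno3 is at 0 in the Ace-positive cells of wild-type day 9, and Ccl2 is lowest in the circles.

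Transcription factors of monocytes held 6 genes that were higher and 1 that was lower of 18 tested, with a median of 0.42. Nr4a1, which non-classical monocytes need, stood at 146, 186, 182 and 209 CPM in Ace-positive cells and at 47.1, 62.9, 9.71 and 28.0 CPM in classical monocytes. It was higher in every library, with a log2 fold change of 2.20 (SE 0.31, adjusted p 0.000121). The share of Ace-positive cells with an Nr4a1 UMI was 40.0%, 50.3%, 39.1% and 48.1%, against 21.9%, 27.3%, 5.76% and 14.8% of classical monocytes. Hes1, a target of Notch signalling, stood at 200, 137, 24.8 and 49.2 CPM against 6.74, 24.3, 2.84 and 6.06 CPM, with a log2 fold change of 2.85 (SE 0.28, adjusted p 1.98e-06). The lowest Ace-positive value lay just above the highest classical one, and day 9 stood above day 12. Pou2f2 (log2 fold change 1.47), Klf4 (0.86), Kdm6b (0.82) and Klf2 were the other factors that were higher, and Maf, a factor of tissue macrophages, was lower (-0.97). Spi1, which encodes PU.1, Cebpb and Irf8 gave 0.20, 0.27 and 0.35 and did not pass the test. The calls of Pou2f2 (1.27), Kdm6b (0.76) and Klf2 (0.79) were lost without the knockout library of day 12. Those of Maf (-0.71), Kdm6b (0.80) and Klf2 (0.86) were lost without the wild-type library of day 12, and those of Kdm6b (0.71) and Klf2 (0.81) without the wild-type library of day 9.

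Adhesion and vascular patrolling genes held 4 that were higher and 0 that were lower of 13 tested, with a median of 0.32. Itgal stood at 200, 191, 215 and 160 CPM against 53.9, 64.0, 26.0 and 25.6 CPM, higher in every library, with a log2 fold change of 2.04 (SE 0.23, adjusted p 8.91e-06). S1pr5 encodes a receptor for sphingosine 1-phosphate, a lipid that guides cells out of tissue, and was at 0, 22.5, 8.25 and 24.6 CPM against 1.37 to 2.25 CPM. Its log2 fold change was 3.46 (SE 0.50, adjusted p 0.000148), and the wild-type library of day 9 held none of its UMIs.

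Genes outside the lists were also among the most different. By the rule used for naming genes, the 10 with the largest positive fold change at a mean of 50 CPM included Serpinb10, a serine protease inhibitor, at 158 to 270 CPM against 8.05 to 60.0 CPM (log2 fold change 2.50). They also included Adrbk2, a kinase of G protein-coupled receptors (2.16), and Trem3 (2.06). The glutathione reductase gene Gsr (1.75) and Hpgd, whose product inactivates prostaglandins (1.73), were not among the 10 but were higher too, and the same rule named both in the comparison with macrophages given further on.

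Promoters are shown for Ace, by which the cells were chosen, and for Adgre4, the called gene of the non-classical list with a match to the motif of PU.1, a factor that all monocytes use. Each runs from 250 bases before to 50 bases after the start of transcription in RefSeq, on build GRCm38.p6, at chr11:105967698-105967997 for Ace (plus strand) and chr17:55749734-55750033 for Adgre4 (plus strand). Capitals mark the PU.1 motif GAGGAAGT, read on the reverse strand.
Ace: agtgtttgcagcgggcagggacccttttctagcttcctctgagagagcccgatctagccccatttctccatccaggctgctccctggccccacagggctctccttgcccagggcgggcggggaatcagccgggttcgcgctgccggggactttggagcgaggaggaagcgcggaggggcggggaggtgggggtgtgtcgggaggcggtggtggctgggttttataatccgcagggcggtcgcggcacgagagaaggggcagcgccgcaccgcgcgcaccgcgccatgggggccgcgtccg
Adgre4: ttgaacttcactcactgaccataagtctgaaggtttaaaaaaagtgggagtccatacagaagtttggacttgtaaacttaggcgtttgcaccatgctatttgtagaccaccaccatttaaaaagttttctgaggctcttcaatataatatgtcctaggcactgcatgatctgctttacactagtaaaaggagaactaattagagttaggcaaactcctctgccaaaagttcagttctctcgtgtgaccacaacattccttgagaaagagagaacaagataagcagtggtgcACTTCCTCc
A total of 3 motifs were searched for on both strands without regard to overlap, GAGGAAGT for PU.1, AAAGGTCA for NR4A1 and CCACACCC for KLF factors. Of 32851 promoters of this length, 3.20%, 1.51% and 3.56% held them. The PU.1 motif was in 15 of 157 promoters of the genes that were higher (9.55%), in 13 of 313 promoters of those that were lower (4.15%) and in 319 of 8863 promoters of all tested genes (3.60%). The NR4A1 motif was in 1 of the 157 (0.637%), 9 of the 313 (2.88%) and 84 of the 8863 (0.948%). The KLF motif was in 6 (3.82%), 17 (5.43%) and 341 (3.85%) of them. Those 157 promoters belong to 121 of the 174 genes that were higher. In the non-classical list the PU.1 motif was in 3 of 17 promoters, those of Adgre4, Bcl2a1b and Fcgr4, and the last pair of genes did not pass the test. The NR4A1 motif was in 0 of the 17 and the KLF motif in 1, that of Pglyrp1. These are matches of letters in 1 window per start site and show no binding.

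Of the genes by which classical monocytes are known, 0 of 12 were higher and 1 was lower, with a median of -0.07. Vcan, a matrix proteoglycan, was the one that was lower, at 79.9, 46.4, 66.0 and 73.8 CPM against 117, 88.4, 118 and 190 CPM (log2 fold change -1.06, SE 0.20). Ccr2, the receptor that brings monocytes out of the bone marrow, stood at 1185, 907, 652 and 584 CPM against 1051, 1216, 826 and 741 CPM. The Ace-positive library was lower in 3 of 4, and the log2 fold change of -0.38 did not pass the test (adjusted p 0.112). Hp stood at 492, 582, 446 and 418 CPM against 295, 745, 192 and 307 CPM, and its log2 fold change of 0.29 did not pass it (adjusted p 0.556). The knockout library of day 9 was the only one of the 4 with less Hp in Ace-positive than in classical cells, and the fitted value ran from -0.36 to 0.72 over the settings. Plac8 (0.26) and Chil3 (0.11) did not pass it. Across 15 other settings 0 to 3 genes of the classical list were higher and 0 to 4 lower, with medians from -0.60 to 0.25. Without knockout day 9, 3 were higher and 2 lower, so the small difference depends on the setting.

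Chemokine genes were lower as a group, with 0 higher and 8 lower of 14 tested and a median of -1.18. Ccl2, which draws CCR2-bearing monocytes, stood at 293, 856, 272 and 338 CPM in Ace-positive cells and at 1477, 1948, 2117 and 2223 CPM in classical monocytes. The groups did not overlap, and the log2 fold change was -2.29 (SE 0.22, adjusted p 1.23e-06). Ccl7, Ccl12, Ccl8, Ccl6 and Ccl9 followed, with log2 fold changes of -2.68, -2.30, -2.75, -1.12 and -1.23, and Cxcl16, a ligand of CXCR6, was at -1.31 (-1.24 and past the threshold no longer without wild-type day 12). Cxcl3 had 0 UMIs in all Ace-positive cells and 169 in classical monocytes, which makes it at least 7.78-fold lower by a floor of 3 UMIs over the group. Ccl8 (adjusted p 0.0403) kept its call in 5 of 15 settings and lost it without wild-type day 9 (-2.80), wild-type day 12 (-2.46) or knockout day 12 (-2.95).

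MHC class II genes were lower in 8 of 10 genes, with 0 higher and a median of -0.95. H2-Aa, a chain of the I-A molecule, stood at 1917, 2067, 2518 and 2606 CPM against 6122, 2280, 8125 and 6211 CPM, with a log2 fold change of -1.35 (SE 0.21, adjusted p 0.000415). Cd74, the invariant chain, stood at 7813, 6876, 8915 and 9625 CPM against 17050, 6461, 23855 and 19173 CPM, with a log2 fold change of -1.05 (SE 0.19). Ace-positive cells varied little between libraries, and the classical monocytes of the knockout tumours of day 9 stood at that level too, so the 2 classes hardly differed there. In the other 3 libraries classical monocytes held the higher level. Leaving out single libraries or changing the processing left between 4 and 9 of the 10 genes lower.

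Genes of glycolysis and the hypoxia response were lower for 13 of 20, with 0 higher and a median of -0.94. Gapdh, an enzyme of glycolysis, stood at 985, 1397, 1255 and 1100 CPM against 2248, 2032, 2615 and 2151 CPM, which do not overlap, with a log2 fold change of -1.06 (SE 0.13, adjusted p 4.37e-05). Ldha (-1.01), Tpi1 (-1.37) and Pkm (-0.84) were lower as well, and so was the hypoxia-induced Bnip3 (-1.33). Of the 20 genes, 16 were lower in each of the 4 libraries. Over 15 other settings between 6 and 16 passed the test.

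Genes of alternatively activated macrophages were lower for 5 of 12, with 0 higher and a median of -2.03. Arg1, which encodes arginase, was at 0, 4.51, 8.25 and 0 CPM against 2.25, 134, 109 and 121 CPM, with a log2 fold change of -5.00 (SE 0.44, adjusted p 5.24e-07). Mrc1 (-2.27), Mgl2 (-3.86), Clec10a (-1.05) and Ccl24 (-1.78) were the others, and Clec10a lost its call whichever library was left out (-1.53 to -0.92). Over the settings the count ran from 0 to 8, so it depends on the processing. Of 13 complement and coagulation genes 6 were lower and 1 was higher, Thbd (1.84, and 1.60 with no call without knockout day 12), with a median of -1.03. Among those lower were C3ar1, the receptor of complement C3a (-1.75), and the properdin gene Cfp (-1.48).

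**Figure D4:**
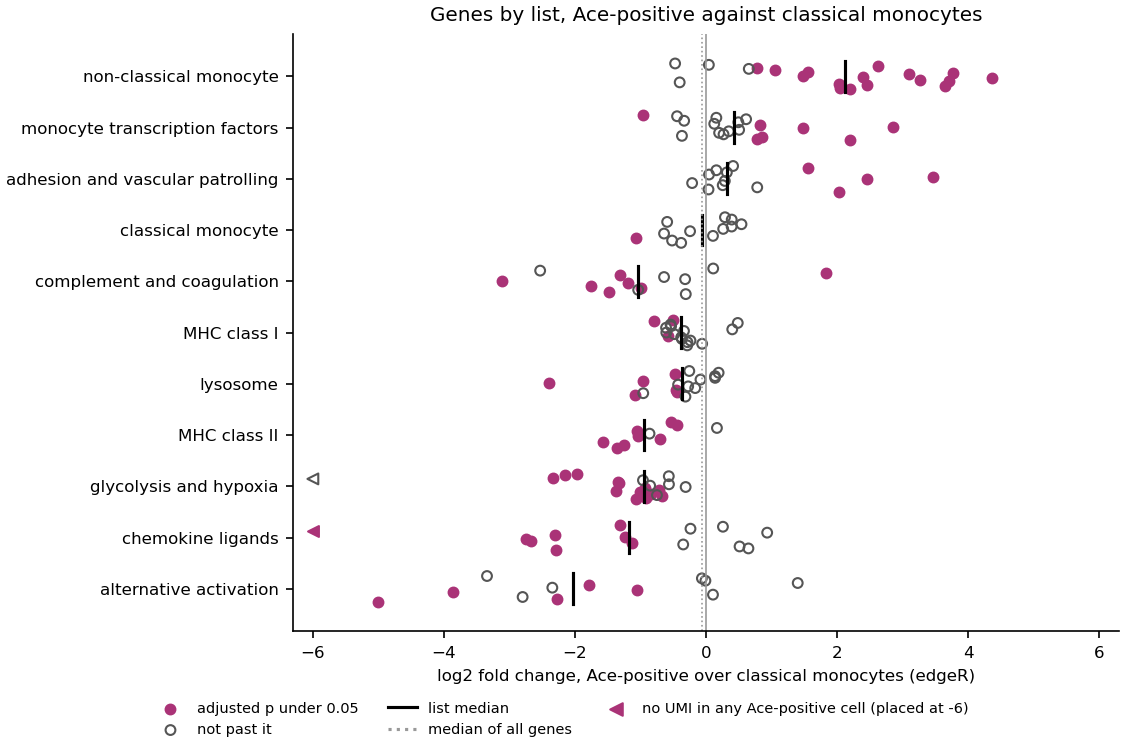
Log2 fold changes (edgeR) of the genes of 11 lists, Ace-positive over classical monocytes, with filled points for genes past an adjusted p of 0.05, a bar at each list's median and a dotted line at the median of all genes (-0.06). Triangles at -6 mark genes with no UMI in any Ace-positive cell, which have no fitted value drawn. The non-classical list lies to the right with a median of 2.12, and chemokine ligands (-1.18), MHC class II (-0.95) and glycolysis and hypoxia (-0.94) lie to the left.

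Other gene groups moved less. MHC class I genes were lower for 3 of 17, the interferon-gamma response for 3 of 23, and the type I interferon response for 1 of 24, Ly6a, with 0 higher in each. Lysosome genes were lower for 6 of 16 (3 with RLE scaling), among them the protease gene Ctsd (log2 fold change -1.08). Survival genes held 1 lower of 10, Fc gamma receptors 1 of 5, Fcgr1 (-1.11), and immediate early genes 1 of 15, Ier3 (-0.88). Cytokines held 1 higher of 13, Tgfb1 (0.57), and 2 lower. Ier3 kept a call only without knockout day 12 when single libraries were left out (-0.83 to -0.68 in the others), and Tgfb1 only without knockout day 9 (0.51 to 0.57).

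Markers of other cells were counted in the same sums. Mast cell and basophil markers were at 0 UMIs in all members, as were Ly6g and Camp of neutrophils and Ms4a1 of B cells. Dendritic cell markers summed to 759 to 901 CPM against 1049 to 1998 CPM in classical monocytes, and T, NK and B cell markers to 66.6, 196, 24.8 and 18.4 CPM against 157, 56.5, 182 and 118 CPM. The last of these were higher than in classical monocytes in the knockout library of day 9 and lower in the other 3. Macrophage markers summed to 2452 to 3700 CPM against 1321 to 2530 CPM, most of it Apoe. Apoe was higher in Ace-positive cells (log2 fold change 0.84, and 0.81 with no call without wild-type day 12). Its rise was smaller and not called with at least 2 Ace UMIs (0.39) or in members with Ly6c2 at most 4 UMIs (0.33). Mrc1 and Cd63 (-2.88) were lower. Neutrophil markers summed to 93.2, 175, 82.5 and 5083 CPM, and 3 cells of the knockout library of day 12 held 402 of its 403 S100a8 UMIs. In the knockout library of day 9, 1 cell held 59 of 64. Of the neutrophil markers, 4 of 6 tested were higher than in classical monocytes, and 0 were higher and 3 lower without those 4 cells. The non-classical list held 14 higher genes without them, with a median of 2.09, and the part of these cells in other results was not tested beyond such repeats.

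The Ace-positive cells were next set against C1q macrophages, cells with at least 10 C1q UMIs, at least 5 Lyz2 UMIs and 0 Ace that met the other limits of the gate, of which there were 96, 354, 975 and 412. The same test called 775 of 8962 genes higher (8.65%) and 1035 lower (11.5%). Ace-positive cells were higher in genes of both monocyte types, in 15 of 20 non-classical genes (4 lower, median 2.36) and in 7 of 12 classical genes (0 lower, median 1.36). Hp was at 65.7, 49.3, 42.3 and 35.6 CPM in macrophages, below every Ace-positive library, with a log2 fold change of 3.22 (SE 0.25, adjusted p 8.23e-09). Serpinb10 (6.89), Treml4 (5.57), Adgre4 (5.31), Pglyrp1 (5.29), Hpgd (4.95) and Hes1 (4.50) gave the largest positive fold changes among called genes with a mean of at least 50 CPM and the same sign in every library. The largest negative ones by that rule were those of Folr2, a folate receptor of tissue-resident macrophages (-6.93), Pf4 (-6.66), Retnla (-6.64), Ccl8 (-6.60) and Arg1 (-6.22). Macrophage genes outside the rule were lower for 7 of 8, with a median of -2.81, and Apoe was the one that did not pass the test (0.07).

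Against macrophages the groups of transcription factors (10 higher, 1 lower of 18) and adhesion genes (8 higher, 0 lower of 13) were higher. Immediate early genes were higher for 8 of 15 with 0 lower, among them Fos (log2 fold change 0.94) and Ier2 (1.36), whereas against classical monocytes Fos (0.24) and Ier2 (0.30) did not pass the test. Of 18 cell cycle genes 11 were lower and 1 was higher, with a median of -1.74. MHC class II genes were lower for 9 of 10, glycolysis and hypoxia genes for 15 of 20 and lysosome genes for 10 of 16, with 0 higher in each.

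The study set infiltrates of knockout hosts beside those of wild-type hosts, and for these monocytes the difference between genotypes was tested over both days. The fit has 4 sums and 1 residual degree of freedom, so its p-values rest on variation pooled over genes and on the 10 cells of the wild-type library of day 9. Of 2001 genes tested, 10 were higher in knockout (0.5%) and 5 lower (0.25%), and 106 had an unadjusted p below 0.05. DESeq2 called 2 of the 15, Rpl29 and Gm10709. Rpl29, a ribosomal protein gene, stood at 1491, 86.3, 1412 and 111 CPM, and Gm10709 at 0, 722, 41.3 and 799 CPM. The genotypes did not overlap in either. Gm10709 shares 333 of its 450 stretches of 31 bases with Rpl29 transcripts, so reads from the shared stretches cannot be assigned to either, and their sum was 1491, 808, 1453 and 910 CPM. Classical monocytes showed the same, with Rpl29 at 1353, 86.6, 1301 and 152 CPM. Whether the pair differs in expression, in counting or in the genome of the knockout mice was not tested.

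The other 9 genes that were higher in knockout were led in level by Il1b and Trf. Il1b, which encodes interleukin 1 beta, stood at 120, 812, 314 and 688 CPM, with a log2 fold change of 1.75 (SE 0.30). Both knockout libraries lay above both wild-type ones, and classical monocytes held 233, 527, 211 and 327 CPM. Its call was lost without the cells high in S100a8, where the log2 fold change was 0.94. Trf, which encodes transferrin, stood at 213, 538, 107 and 645 CPM, with a log2 fold change of 1.93 (SE 0.33), and at 134, 304, 48.8 and 206 CPM in classical monocytes. C5ar1, the receptor of complement C5a, stood at 0, 118, 49.5 and 234 CPM, and at day 9 it was at least 2.95-fold higher in knockout by a floor of 3 UMIs per library. Ier3 (2.98), Clec4e (2.44), Ccl7 (1.97), Plaur (1.62), Bcl2a1b (1.61) and Pglyrp1 (1.56) were higher on both days. Bcl2a1b belongs to a family of near-identical copies, and the call of Pglyrp1 was lost without the cells high in S100a8 (1.28), as it was without the filter on low counts (1.63). Of the genes of the non-classical list only Bcl2a1b and Pglyrp1 passed this test, and Gngt2 (0.01), Nr4a1 (0.25), Treml4 (0.22), Itgal (-0.26) and Cx3cr1 (-0.03) did not.

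Ifit1, Ifit3 and Isg15, induced by type I interferon, were lower in knockout over both days, and a few cells of the wild-type library of day 9 set them. Ifit1 stood at 546, 76.0, 33.0 and 12.3 CPM (log2 fold change -2.73, SE 0.45), Ifit3 at 666, 121, 41.3 and 67.6 CPM (-1.81) and Isg15 at 1571, 450, 239 and 270 CPM (-1.10). The wild-type library of day 9 was the highest in each, and for Ifit3 and Isg15 the order of the genotypes turned at day 12. Of its 10 cells, the 5 with 5 or more Ly6c2 UMIs held all 41 Ifit1 UMIs, all 50 Ifit3 UMIs and 116 of the 118 Isg15 UMIs, and Ifit1 was seen in 3 cells. The other 5, with 0 to 4 Ly6c2 UMIs, held 0, 0 and 2 UMIs of the 3 genes (0, 0 and 61.0 CPM). Such cells of the knockout at day 9 stood at 51.5, 64.1 and 390.1 CPM. Over the 32783 UMIs of those 5 cells a floor of 3 UMIs allows 91.5 CPM, so Ifit1 and Ifit3 show no direction there. Isg15 was lower there than in the knockout, on 2 UMIs. At day 9 alone, with no test, 18 of 23 type I interferon genes fell by 1.5-fold or more in knockout and 1 was that much higher, with a median log2 ratio of -1.46, where 24.3% of all genes were that much lower and 24.2% that much higher. This count rests on the same 10 wild-type cells, and for the 3 genes above on the Ly6c2-high ones among them. A gene entered it with 20 UMIs over the pair. The knockout sum, of 1552610 UMIs against 75128, could supply these alone, so some wild-type counts may be very low. At day 12 the count was 2 lower and 1 higher of 10, where 10.5% of all genes were lower and 14.4% higher. Isg15 in classical monocytes stood at 1229, 557, 1189 and 1066 CPM, lower in knockout on both days.

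**Figure D5:**
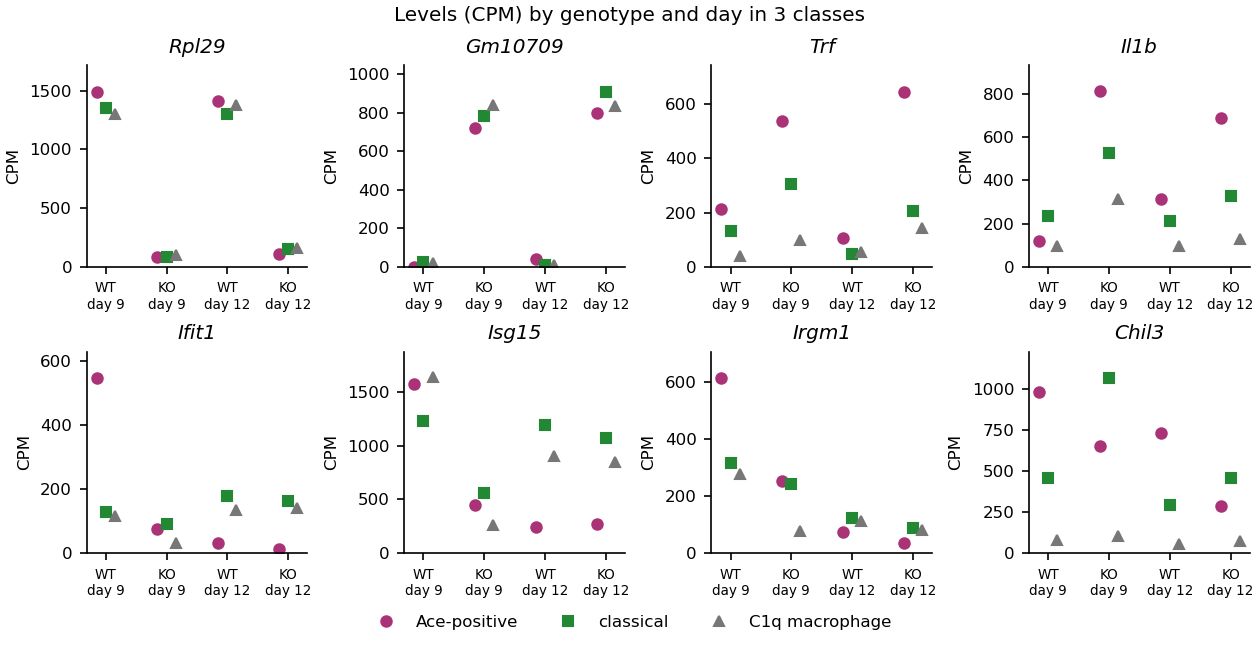
Levels (CPM) of 8 genes by genotype and day in the sums of Ace-positive cells (circles), classical monocytes (squares) and C1q macrophages (triangles), with 1 point per class and library. Rpl29 and Gm10709 part the genotypes in all classes, Ifit1 in Ace-positive cells is high at 546 CPM in wild-type day 9 only, and Irgm1 in Ace-positive cells falls from day 9 to day 12.

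Between day 9 and day 12 the same fit found 13 of 2001 genes that rose (0.65%) and 37 that fell (1.85%). Of 15 genes of the interferon-gamma response 5 fell and 0 rose. Cxcl9, a ligand of CXCR3, stood at 439, 663, 82.5 and 148 CPM, with a log2 fold change of -2.22 (SE 0.33). Irgm1, an immunity-related GTPase, stood at 612, 253, 74.3 and 36.9 CPM, with a log2 fold change of -2.90 (SE 0.41), and Cxcl10 at 2902, 1657, 173 and 1008 CPM (-2.00). In each of the 3 genes both libraries of day 12 lay below both of day 9. Of the wild-type UMIs at day 9, 33 of 33 for Cxcl9 and 45 of 46 for Irgm1 came from the 5 members with 5 or more Ly6c2 UMIs. Wild-type members with 0 to 4 Ly6c2 UMIs held 0 Cxcl9 UMIs at day 9 and 5 at day 12 (0 and 75.7 CPM). They held 1 and 2 Irgm1 UMIs (30.5 and 30.3 CPM). At day 9 a floor of 3 UMIs allows 91.5 CPM in these cells, so their counts show neither a fall nor its absence. In knockout members of that kind Cxcl9 stood at 783.7 and 88.3 CPM and Irgm1 at 256 and 44.1 CPM. Gbp2 (-1.28) and Gbp7 (-2.10) were the other genes of the list that fell. Of 10 chemokine ligands 5 fell, among them Ccl4 at 812, 562, 149 and 129 CPM (-2.25), and 1 rose, Ccl6 (1.08). Ifit1 (-3.59), Ifit3 (-2.30), Hes1 (-1.98) and Csf1r, the receptor that monocytes need to survive (-0.96), also fell.

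The genes that rose include the nuclear RNAs Malat1 and Neat1, Ear2 and Pglyrp1. Malat1 stood at 7121, 7930, 15544 and 17375 CPM, with a log2 fold change of 1.15, and Ear2 rose by 1.06 and Pglyrp1 by 1.96. Gm42418, a transcript that overlaps ribosomal RNA sequence, rose by 2.42, and at day 12 the median member held 5235 and 5808 UMIs against 7835.5 and 7392 at day 9. The day and the preparation of the libraries cannot be told apart, and DESeq2 called 5 genes, 1 that rose and 4 that fell.

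Whether the genotype difference was itself different in Ace-positive and in classical cells was tested as an interaction over all classes. Of 8962 genes, 5 had a more positive difference in Ace-positive cells (0.0558%) and 1 a more negative one (0.0112%), and 437 had an unadjusted p below 0.05. The median over all genes was 0.26, and 0.14 with RLE scaling, so values near it carry no direction. Without the 4 cells high in S100a8 it held 3 genes, and the interaction of Cxcl2 went from 4.32 to 3.32 and lost its call. Chil3, a chitinase-like protein of myeloid cells, stood at 985, 656, 735 and 289 CPM in Ace-positive cells and at 457, 1068, 291 and 461 CPM in classical monocytes. It was lower in knockout in the first and higher in knockout in the second on both days, with an interaction of -1.72 (SE 0.27, adjusted p 0.000939) that passed in all 9 other settings. Within Ace-positive cells alone its log2 fold change was -0.94 (adjusted p 0.0434) and lost its call in 4 of 6 settings. Spp1, which encodes osteopontin, stood at 0, 64.4, 24.8 and 449 CPM against 244, 298, 109 and 171 CPM, and Cxcl2 at 13.3, 46.4, 16.5 and 928 CPM against 24.7, 131, 47.6 and 107 CPM. S100a8, S100a9 and H2-Q7 were the remaining ones. Of 9 other settings, Spp1 kept its call in 5 and H2-Q7 in 4. These 9 settings were the same for Chil3. Those with at least 2 Ace UMIs, thinned cells or Ly6c2 of at most 4 UMIs held 4, 5 and 5 wild-type members at day 9. The S100a8 and S100a9 values are those of the 4 cells given above, and H2-Q7 belongs to a family of near-identical genes, so its counts are uncertain.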

How the data were processed

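Single live CD45+ cells of 4 tumour pools were measured with 10x 3' libraries. The authors deposited UMI counts, not normalized, for each gene and barcode. Cell Ranger 2.0.2 and the build mm10 are named in the submitters' processing notes. All 27998 gene IDs carry symbols in the files, and 27645 have a position in GENCODE vM21.

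Cells were chosen by UMI limits without clustering, and doublets were removed only as an alternative, since Scrublet's own threshold called 3, 6, 1 and 10 barcodes and 66 of 11270 barcodes occur in more than 1 library. The members and the gene lists were chosen with earlier results of these data known. UMIs were summed per class and library, 12 sums in all, and tested with edgeR 4.0.16 (quasi-likelihood, TMM, filterByExpr, Benjamini-Hochberg, adjusted p 0.05) in R 4.3.3. Class comparisons used library as a block, with 6 residual degrees of freedom and 14.67 prior degrees. Genotype and day were terms of a fit on 4 member sums with 1 residual degree of freedom and infinite prior degrees. The interaction fit had 2 residual degrees of freedom. Since no label says otherwise, p-values measure the spread between these sums, which may be technical. Single-day log2 ratios of lists add 0.5 UMIs and need 20 UMIs over the pair. DESeq2 1.42.0, scanpy 1.11.5 and scipy 1.17.1 gave alternatives, doublet scores and exact 95% intervals, which cover counting error only. The floor for a count of 0 is 3 UMIs. All scripts were tested on simulated counts.

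Genes were named from the lists, or as the 10 called genes per direction with the largest fold change, a mean of at least 50 CPM and the same sign in every library. A rule for genes most like Ace gave 19 genes tied at Spearman's rho 0.84 over the 12 sums, of which 8 hold 0 Ace, and so singled out none. CPM compare classes and libraries for 1 gene and not genes with each other.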

Additional observations from a re-analysis of the deposited data

Results flagged for a closer look

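The genotype difference of 6 genes differed between Ace-positive and classical monocytes by the interaction test, with no explanation weighed. Chil3 was lower in knockout Ace-positive cells on both days and was higher in knockout classical monocytes on both days, with an adjusted p of 0.000939 (edgeR). Spp1 and Cxcl2 were higher in knockout than in wild-type in both classes on both days, with adjusted p of 0.00223 and 0.00279. In Ace-positive cells of wild-type day 9 both lay below the 39.9 CPM that 3 UMIs make there. The day 9 order in these cells thus rests on few wild-type UMIs, and for Cxcl2 it is uncertain. Spp1 kept its call in 5 of 9 other settings and lost it in 4, RLE scaling and DESeq2 among them. For Cxcl2 the difference was larger in Ace-positive cells at day 12 (16.5 to 928 CPM against 47.6 to 107 CPM) but not at day 9 (13.3 to 46.4 CPM against 24.7 to 131 CPM), and without the 4 cells high in S100a8 its call was lost (adjusted p 0.152). H2-Q7 was higher in knockout Ace-positive cells on both days and lower in knockout classical monocytes on both days, with an adjusted p of 0.0106. In Ace-positive cells it stood at 13.3 CPM in wild-type day 9, also below 39.9 CPM, and at 98.5 CPM in knockout. At day 12 it stood there at 74.3 and 98.3 CPM, so these directions rest on few UMIs. Its call was kept in 4 of 9 other settings and lost in 4, RLE scaling and DESeq2 among them, and its direction turned when cells were thinned. S100a8 and S100a9 had adjusted p of 3.24e-05 and 5.83e-05, and 4 Ace-positive cells of the knockout libraries hold nearly all S100a8 UMIs.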

How the results depend on the processing

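The count against classical monocytes, 497 genes in all, was 208 with cells thinned to 3000 UMIs, 102 without the library block and 752 against all Ace-negative cells of the gate, and 193 to 412 without single libraries. Leaving out wild-type day 12 gave 193 and knockout day 12 gave 211. The count against C1q macrophages, 1810, was 768 when thinned, 1079 without the block and 919 to 1681 without single libraries, lowest without knockout day 9. The day count of 50 was 32 without the filter on low counts and 5 with DESeq2, and the genotype count of 15 was 2 with DESeq2. The interaction count of 6 was 3 with RLE scaling, 22 without the filter, 1 with DESeq2, 11 with at least 2 Ace UMIs, 23 with a mitochondrial limit of 5% and 3 without cells of 10 or more S100a8 UMIs. The interaction turned to -0.77 for H2-Q7 when thinned and to -0.85 for S100a9 without the cells high in S100a8. The cause of these shifts was not tested beyond the fewer UMIs, cells or sums of each setting.

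Repeats of single named genes against classical monocytes kept direction and side of the threshold 1076 times, lost the call 93 times, 28 of them without the block, and gained it 26 times. The 336 repeats against macrophages kept theirs. Genotype calls were lost in 21 of the repeats and kept in 98, day calls lost in 31 and kept in 112, and interaction calls lost in 14 and kept in 38. All share ratios stayed above 1.

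Leaving out a library left 0 residual degrees of freedom for genotype, day and interaction, so it gave no test there. Fits with at least 2 Ace UMIs, thinned cells or Ly6c2 of at most 4 UMIs left fewer than 10 wild-type cells at day 9 and were not run for genotype and day. The interaction was run in these settings, although only 4, 5 and 5 such cells were left, so its repeats there carry less weight. The S100a8 and Ly6c2 alternatives were chosen after seeing the data. No paired analysis of genotype or day was possible because each group has 1 library and the labels give no replicate numbers. The class comparisons were paired by library through the block. With 10 to 27 cells in 3 libraries, low genes carry wide counting error.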
